A study of Mus musculus with 2 samples.

Results

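Mir126a, Mir221 and Mir222 are microRNA genes best known from the endothelium, the cell layer that lines blood vessels. They were taken as the rows of the deposited tables whose Ensembl identifiers carry these symbols in the GENCODE mouse annotation, which gave 3 of 1973 gene rows. The tables hold sequenced RNA under 30 bases, the size of microRNAs, isolated from the embryonic facial prominence, which is the set of tissue buds that form the face and jaws. The embryos were healthy mice of the strain B6NCrl at embryonic day 12.5, with males and females mixed. There were 2 libraries, biological replicates of 1 group, made from 120 pooled embryos (replicate 1) and 88 pooled embryos (replicate 2). No other group was analysed here, so levels are described within the tissue, and the only difference that can be tested is the one between the 2 libraries.

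Mir126a lies inside Egfl7, a gene for a secreted protein of endothelial cells, and is produced from the same primary transcript. Its product dampens Spred1 and Pik3r2, which restrain signalling by vascular growth factors, and in mice without it vessels leak and some embryos die. Mir221 and Mir222 are neighbours that are transcribed together. In human endothelial cells their products lower the receptor Kit, and in several human cell types they lower the cell cycle inhibitor Cdkn1b. They are also active in smooth muscle and other cells, so they are less particular to endothelium than Mir126a. Each row of the tables counts the reads on a whole microRNA gene, so the 5′ and 3′ strands cut from a hairpin were not separated.

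Mir126a (ENSMUSG00000065540.1) lay at chr2:26591357-26591429 on the plus strand of GRCm38. Of the 9 annotated Egfl7 transcripts that span it, 8 place it in an intron and 1, a retained-intron transcript, has it within an exon. It began 11343 bases from the annotated start of Egfl7 (chr2:26580014-26593120), and it also lay in an intron of the overlapping gene Gm20532. Mir221 (ENSMUSG00000065422.1) lay at chrX:19146294-19146388 and Mir222 (ENSMUSG00000065471.1) at chrX:19146893-19146971, both on the minus strand. Neither had an annotated host gene. Mir222 comes first in the direction of transcription and 504 bases separate it from Mir221. The nearest annotated gene other than a microRNA gene was the noncoding Gm14636 on the same strand, 10010 bases from Mir222.

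**Figure D1:**
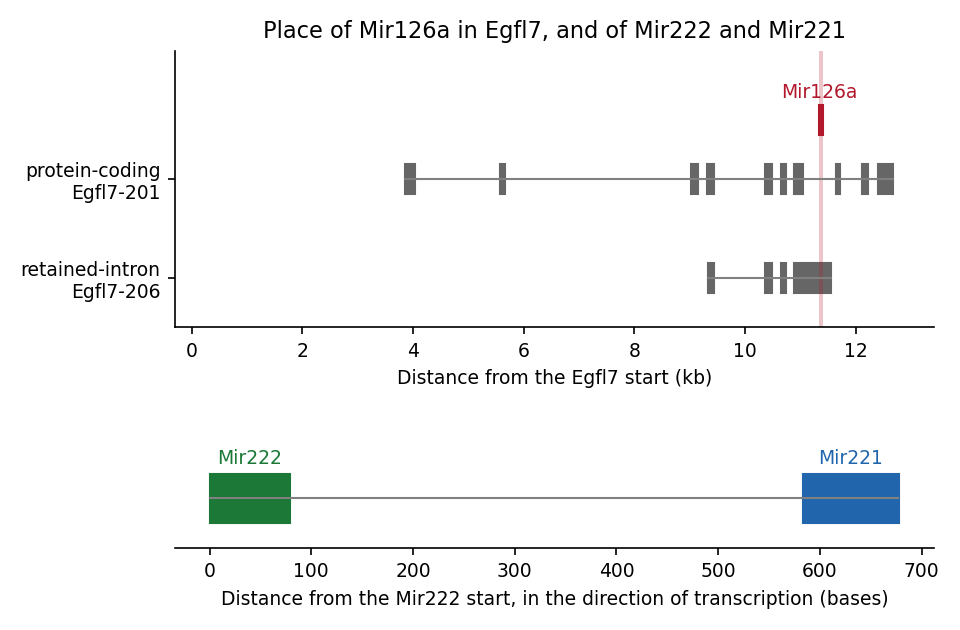
Place of Mir126a within Egfl7 (upper panel, distance from the Egfl7 start in kb, with exons as grey boxes in 1 protein-coding transcript and the retained-intron transcript) and of Mir222 and Mir221 (lower panel, distance in bases from the Mir222 start). Mir126a falls in an intron of the upper transcript and in an exon of the lower one, and 504 bases lie between Mir222 and Mir221.

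The mature strands are shown because base pairing of bases 2 to 8, the seed, chooses the messages a microRNA acts on. The seeds of the 3′ strands divide the 3 genes into 2 groups. The sequences are those of RefSeq on GRCm38.p6, 5′ to 3′, with the seed in capitals. All 3 genes matched that table, with 4 mature strands among them. It gave no 5′ strand for Mir126a or Mir222, which does not mean that none is made.
mmu-miR-126a-3p: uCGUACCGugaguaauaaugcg
mmu-miR-221-3p: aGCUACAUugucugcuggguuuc
mmu-miR-222-3p: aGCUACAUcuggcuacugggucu
mmu-miR-221-5p: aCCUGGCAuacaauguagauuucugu

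The strands miR-221-3p and miR-222-3p had the same first 8 bases, seed included. Of the 15 later positions, 3 were identical (11 of 23 in all, compared position by position without gaps). Both also hold the stretch cugggu near the 3′ end at shifted positions, so this count understates their likeness there. No other of the 1738 mature strands in the table carried the seed of miR-126a-3p or of miR-221-5p. The seed of miR-221-3p and miR-222-3p was found in 1 further strand, miR-1928. Its gene Mir1928 had 0 counts in both libraries, which allows up to 0.636 CPM in replicate 1 and 0.506 CPM in replicate 2 (3 counts each). CPM (counts per 1000000) are the own-strand counts of a gene, scaled to a total of 1000000 over all genes of that library.

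The hairpins show where these strands lie in the counted genes, with the mature strands of that RefSeq set in capitals. A 5′ strand of Mir126a or Mir222 would lie in lower case.
Mir126a hairpin: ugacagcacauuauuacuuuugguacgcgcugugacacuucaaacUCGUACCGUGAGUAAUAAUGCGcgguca
Mir221 hairpin: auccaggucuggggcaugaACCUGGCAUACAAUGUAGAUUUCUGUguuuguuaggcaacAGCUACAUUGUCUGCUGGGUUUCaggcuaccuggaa
Mir222 hairpin: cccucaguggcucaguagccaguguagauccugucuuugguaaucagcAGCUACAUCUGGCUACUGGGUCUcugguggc

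The longest stretch that a hairpin shared with a microRNA gene at another place was 12 bases for Mir126a, 13 for Mir221 and 12 for Mir222. Reads that matched several places were tallied in a row of their own and not by gene. They made up 26.0% of replicate 1 and 27.9% of replicate 2, and 86 of the 395 detected genes shared a stretch of 20 bases with a copy elsewhere. Detection here means 10 or more own-strand counts in each library. Replicate 1 held 4719337 own-strand reads on genes among 11414919 reads, and replicate 2 held 5929220 among 12792420.

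Mir126a was one of the most abundant microRNA genes of the tissue, while Mir221 and Mir222 stood near the middle of the detected genes. Mir126a had 137004 reads in replicate 1 and 161450 in replicate 2. These are 29030 CPM (exact Clopper-Pearson interval at the 95% level 28879 to 29182) and 27230 CPM (27099 to 27361), a mean of 28130 ± 1273 CPM (SD, n = 2). It thus took 2.90% of all gene counts in replicate 1 and 2.72% in replicate 2. It ranked 11 of 395 by mean level, 10 in replicate 1 and 11 in replicate 2.

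Mir221 had 699 and 1025 reads in replicates 1 and 2, or 148 CPM (interval 137 to 160) and 173 CPM (162 to 184), with a mean of 160 ± 17.5 CPM. Mir222 had 513 and 663 reads, or 109 CPM (99.5 to 119) and 112 CPM (103 to 121), with a mean of 110.3 ± 2.20 CPM. Mir221 ranked 179 and Mir222 ranked 206, on either side of the median detected gene at 122 CPM. The intervals and the floor for a count of 0 reflect the counting of reads alone, because reads copied by PCR are not independent molecules.

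**Figure D2:**
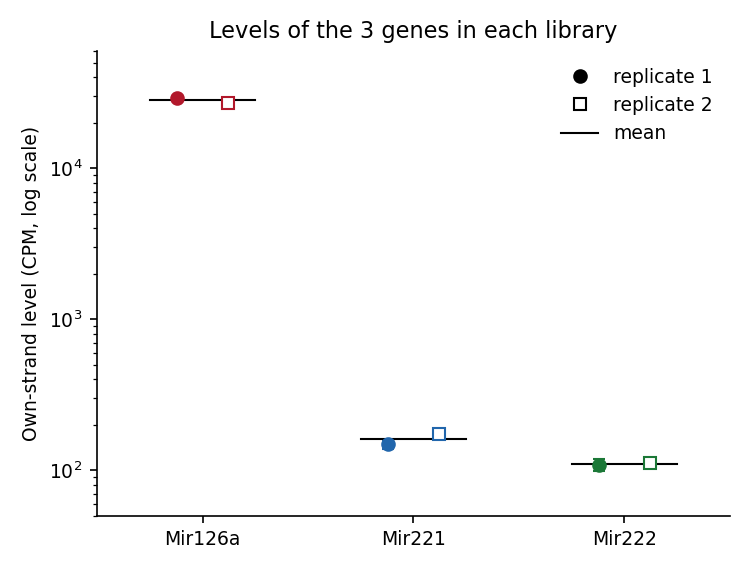
Own-strand level of each gene in CPM on a log axis, with replicate 1 as filled circles, replicate 2 as open squares, the exact 95% counting interval as bars and the mean of both as a line. Mir126a sits at 29030 and 27230 CPM, and every value of Mir221 and Mir222 lies between 109 and 173 CPM.

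The order Mir126a, Mir221, Mir222 was the same in both libraries. Mir126a exceeded Mir221 by 196-fold in replicate 1 (exact binomial interval 182 to 211) and by 158-fold in replicate 2 (148 to 168). It exceeded Mir222 by 267-fold in replicate 1 and by 244-fold in replicate 2. It made up 99.1% of the summed counts of the 3 genes in replicate 1 and 99.0% in replicate 2. Mir221 exceeded Mir222 by 1.36-fold in replicate 1 (1.21 to 1.53) and by 1.55-fold in replicate 2 (1.40 to 1.71), and the mean log2 ratio of 0.54 ± 0.13 (SD, n = 2) was larger than its spread. Reads of mature microRNAs do not build up with the length of the hairpin. Since the annotated genes nevertheless differ in length (73 bases for Mir126a, 95 for Mir221 and 79 for Mir222), mean levels per length were also compared. They were 38534 CPM per 100 bases for Mir126a, 169 for Mir221 and 140 for Mir222. On that scale Mir126a stood 228-fold above Mir221, and Mir221 1.21-fold above Mir222.

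The genes closest to Mir126a in level, 3 on each side by mean CPM, were Mir99b, Mirlet7g and Mir130a above it and Mir26b, Mir100 and Mir30e below it. Mir130a, known to promote vessel growth, lay closest, at 27469 CPM in replicate 1 and 32843 CPM in replicate 2. It fell below Mir126a in replicate 1 and above it in replicate 2, so these neighbours do not differ beyond their spread. The ranges of Mir99b also overlapped those of Mir126a, whereas those of Mirlet7g, Mir26b, Mir100 and Mir30e did not. The 3 genes just above and the 3 just below Mir221 differed from it by at most 0.088 log2 units in mean CPM, and those around Mir222 by at most 0.093. All 12 of them overlapped their neighbour in range between libraries, so their ranks carry little order. Among them, Mir6236 had the mean level nearest to Mir221 and Mir152 the mean level nearest to Mir222. These matches hold for the mean alone. Mir6236 stood at 209 CPM in replicate 1 and 111 CPM in replicate 2, and Mir152 at 101 and 124 CPM.

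**Figure D3:**
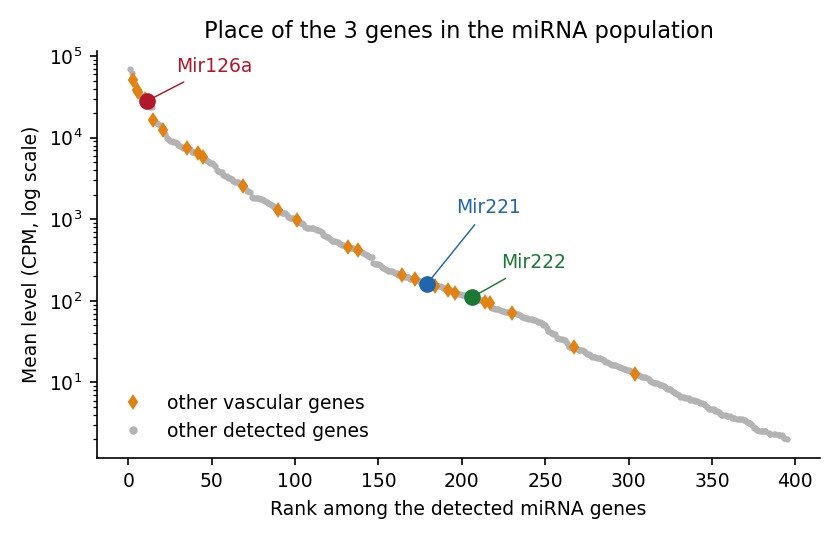
Mean level in CPM (log axis) of the 395 detected microRNA genes against their rank, with the 3 genes named and 24 other vascular genes as diamonds. Mir126a ranks 11 at 28130 CPM, and Mir221 (179) and Mir222 (206) flank the middle of the curve.

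By genomic place, Mir126a ranked 9 of the 268 detected genes that lie inside a host gene on their own strand, whose median was 112 CPM. On chromosome 2 it was second of 29 detected genes, after Mir130a. Mir221 and Mir222 held consecutive ranks, 27 and 28, among the 43 detected genes of chromosome X, where the median was 280 CPM and Mir322 was highest at 37986 CPM. The pair held 257 CPM together in replicate 1 and 285 CPM in replicate 2, or 271 ± 19.7 CPM.

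Mir221 and Mir222 were closer to each other in level than most neighbouring microRNA genes on the same strand. Whether the genes of the other pairs share a transcript was not tested. Over 109 pairs of neighbouring detected genes on the same strand whose starts lie within 10 kb, the median absolute log2 ratio of mean CPM was 2.93, a 7.65-fold difference. The ratio of Mir221 and Mir222 was 0.54, or 1.46-fold, and 9 of the 109 pairs (8.26%) were closer. The lower and upper quartiles of the pairs were 1.46 and 5.11. Of the pairs, 41 lie on chromosome 12, so pairs from the same cluster are not independent, and the figures describe these pairs without a test. In their difference between the libraries, Mir221 and Mir222 were less unusual. Their log2 ratios of replicate 1 over replicate 2 differed by 0.18, against a median of 0.26 over the pairs, and 37 pairs (33.9%) were closer.

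**Figure D4:**
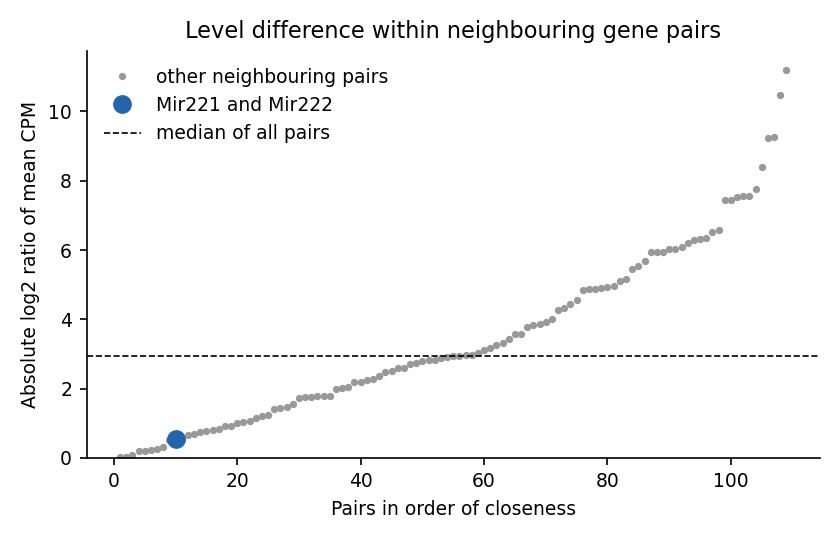
Absolute log2 ratio of mean CPM within 109 pairs of neighbouring microRNA genes, placed in order of closeness. Mir221 and Mir222 (large point, 0.54) lie well under the median of 2.93 (dashed line).

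Between the 2 pools of embryos none of the 3 genes differed by as much as 2-fold. Each gene was tested with a two-sided exact binomial test on its counts, given library sizes scaled by TMM, and p-values were adjusted by the Benjamini-Hochberg method over the 395 detected genes. This test compares the 2 libraries and covers counting error alone. With an adjusted p under 0.05 and at least a 2-fold difference, 4.05% of detected genes were called, and 0 of the 3 genes were. With no limit on size, 51.9% of detected genes passed, as did Mir126a and Mir221.

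Mir126a was 1.07-fold higher in replicate 1 (log2 ratio 0.10, interval 0.09 to 0.11, exact binomial adjusted p = 1.51e-74), but slightly lower there, at a log2 ratio of -0.073, when all reads of a library were taken as its size. That scaling, tried after the values were seen, moved the median log2 ratio of all detected genes to -0.17, and relative to that median Mir126a stood at 0.095. Mir221 was 1.16-fold higher in replicate 2 (log2 ratio -0.22, interval -0.36 to -0.08, exact binomial adjusted p = 0.00457). Mir222 had a log2 ratio of -0.04 (interval -0.20 to 0.13, exact binomial adjusted p = 0.799). With all reads as the library size, the log2 ratio of Mir221 was -0.39 (exact binomial adjusted p = 1.02e-07) and that of Mir222 was -0.21 and passed (exact binomial adjusted p = 0.0272). Relative to the median of all genes on that scale they stood at -0.22 and -0.038.

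The absolute log2 ratio of Mir126a was larger than that of 26.1% of detected genes, that of Mir221 larger than 47.1% and that of Mir222 larger than 12.4%, where the median gene had 0.23. When the spread between pools was fixed at a biological coefficient of variation of 0.2 in edgeR's exact test, 0.506% of detected genes passed, and 0 of the 3 genes did. Their unadjusted p in that test were 0.812 for Mir126a, 0.604 for Mir221 and 0.939 for Mir222. The coefficient that edgeR gives when it treats these same 2 libraries as replicates was 0.190, close to the 0.2 that was set. Few genes could therefore pass, and this test does not show that the libraries were alike.

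**Figure D5:**
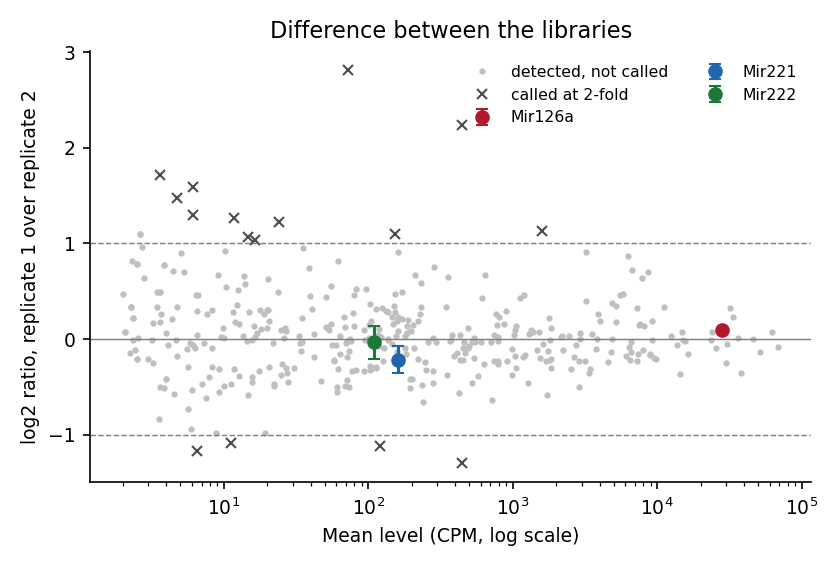
Log2 ratio of replicate 1 over replicate 2 against mean CPM (log axis) for the 395 detected genes, with crosses for the 16 genes called at 2-fold, dashed lines at 2-fold and exact 95% counting intervals on the 3 named genes. Mir126a (0.10), Mir221 (-0.22) and Mir222 (-0.04) lie close to the line at 0.

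The strand opposite Mir126a was looked at because another microRNA gene, Mir126b, is annotated there. Its 5′ strand, shown with its seed in capitals because it lies opposite miR-126a-3p, faces 19 bases of that strand.
mmu-miR-126b-5p: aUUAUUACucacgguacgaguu
Reads opposite Mir126a numbered 15 in replicate 1 and 14 in replicate 2, against 137004 and 161450 on its own strand. They made up 0.0109% of the reads at the locus in replicate 1 (exact Clopper-Pearson interval 0.00613 to 0.0181) and 0.00867% in replicate 2 (0.00474 to 0.0145). That is 1 opposite read for every 9134 own-strand reads in replicate 1 and for every 11532 in replicate 2. Both counts were above the 3 that a count of 0 allows, and the intervals of the libraries overlapped. Whether these reads have the ends of miR-126b cannot be seen in gene counts.

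Mir221 and Mir222 had 0 opposite reads in both libraries. With 699 and 513 own-strand reads in replicate 1, this allows a share of up to 0.429% for Mir221 and 0.585% for Mir222, so a share as low as that of Mir126a was not detectable at this depth. Of the 395 detected genes, 340 (86.1%) had 0 opposite reads in both libraries. Among the 55 with any, the median share was 0.333%, and 39 had a larger share than Mir126a. Such shares depend on depth, since 1 opposite read gives a gene with few own-strand reads a larger share. Of the 20 most abundant genes, 8 had any opposite read, and 0 had a larger share than Mir126a.

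Other genes with a known role in endothelium or vessel growth spanned the whole range around the 3 genes. Of 27 such genes listed, 24 had a row and all 24 were detected, against 395 of all 1973 gene rows. Mir126b, Mir24-1 and Mir378a were not analysed here. By mean level, 4 of the 24 exceeded Mir126a, 12 lay between Mir126a and Mir221, 3 between Mir221 and Mir222, and 5 below Mir222. The 4 above were Mir17 of the miR-17-92 cluster (51655 ± 3519 CPM), Mir322 (37986 ± 6628 CPM), Mir23b (36095 ± 5.22 CPM) and Mir130a (30156 ± 3800 CPM). Mir210, which responds to low oxygen, stood at 453 ± 49.6 CPM. Mir132, which promotes sprouting of vessels, stood at 154 ± 21.1 CPM and ranked 184, against 179 for Mir221. The lowest was Mir218-1, whose host gene Slit2 guides axons and vessels, at 12.7 ± 0.972 CPM. The median of the 24 was 723 CPM, against 122 CPM over all detected genes. The list was picked by known role and with earlier results of these data known. Its detection and median therefore do not measure an enrichment of vascular genes in this tissue. The list includes 6 genes of the miR-17-92 cluster. It also includes 9, Mir23b and Mir218-1 among them, that share sequence with a copy elsewhere and whose counts are uncertain. With 2 libraries an SD rests on 1 difference, so the 5.22 CPM of Mir23b does not measure its precision.

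Between the libraries, 0 of the 24 vascular genes were called at 2-fold, against 4.05% of all detected genes, and at a coefficient of 0.2 edgeR's exact test passed 0 of them, against 0.506%. At these shares among all genes, counts of 0 in a list of this size say nothing particular about it. Beyond counting error alone, 6 of the 24 were higher in replicate 1, against 24.8% of all detected genes. In replicate 2, 12 of the 24 were higher, against 27.1%. The other 6 did not pass. The median log2 ratio of all 24 vascular genes was -0.11, against 0.00 for all detected genes. The 6 higher in replicate 1 were Mir92-1, Mir23a, Mir132, Mir503, Mir31 and Mir217. The 12 included Mir10a (-0.56), Mir10b (-0.37), Mir322 (-0.35) and Mir130a (-0.25). Mir17, Mir18 and Mir20a of the miR-17-92 cluster were also among the 12 and are not independent, while Mir92-1 of that cluster went the other way. Whether the list leans towards replicate 2 was not tested. High counts make small ratios pass this test, and no 2-fold difference was among them.

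The reads come from whole tissue, so fewer cells of a type and less RNA per cell cannot be told apart, and the cells that gave the reads of the 3 genes were not identified. The genes of the endothelial list with a row are the 3 genes themselves, so the list adds no separate marker of endothelium. Together they held 29287 CPM in replicate 1 and 27514 CPM in replicate 2, nearly all from Mir126a. Blood cells fill the same vessels, and Mir126a is also known from blood stem cells and platelets. Red blood cell genes (3 of 3 detected) summed to 223 CPM in replicate 1 and 331 CPM in replicate 2, led by Mir451a at 239.6 ± 76.4 CPM. White blood cell and platelet genes (4 of 4 with a row) summed to 531 and 512 CPM, led by Mir223 at 292 ± 5.91 CPM, while Mir142 was not analysed here. The smooth muscle and pericyte genes Mir143 and Mir145a summed to 12762 and 16558 CPM, and 7 epithelial genes to 30805 and 35800 CPM. These lists hold no gene particular to the face, so the tissue label was not checked against markers. The part of any of these cells in the levels of Mir126a, Mir221 and Mir222 was not tested. From replicate 1 over replicate 2, the summed log2 ratio was 0.09 for the endothelial list and -0.57 for red blood cells. It was 0.06 for white blood cells and platelets, -0.38 for smooth muscle and -0.22 for epithelium. A sum follows its most abundant genes, and members of a list differed in direction. Mir126a stood at 0.10, but Mir221 at -0.22 and Mir222 at -0.04. Mir486 stood at 0.31, against -0.66 for Mir451a and -0.33 for Mir144. Mir200a stood at 0.43, while 6 epithelial genes were higher in replicate 2. Mir146 stood at 0.52, while 3 genes of its list did not pass the binomial test.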

How the data were processed

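The authors deposited, for each library, whole-number read counts per microRNA gene on both strands together, on 1 strand and on the other, on the mm10 genome and the GENCODE M4 gene set, as the file descriptions deposited with them state. The aligner, counter and trimming are not given in the sources used here. The gene's own strand was taken as the column with 96.8% and 96.7% of reads on genes in replicates 1 and 2. The 4 rows that name no gene were kept out of library sizes. They held 58.7% of reads in replicate 1 and 53.7% in replicate 2. Symbols and places came from GENCODE M21 on GRCm38 (the assembly mm10 denotes) for 1894 of 1973 identifiers, and sequences from RefSeq on GRCm38.p6.

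CPM, exact binomial tests and Clopper-Pearson intervals were computed with scipy 1.17.1, TMM factors (0.998 and 1.002) and the exact test with a fixed coefficient with edgeR 4.0.16, size factors with DESeq2 1.42.0 (R 4.3.3) and hairpin folds with RNAfold 2.7.2. The binomial call was tested on simulated counts with counting error alone. They lack the spread between pools, so they do not show how the call performs under it. No quasi-likelihood test was run, as single libraries on each side leave no spread to estimate apart from the difference tested. The genes, lists and tests were chosen with earlier results of these data known. Genes named besides the 3 were those of the lists, the 3 nearest in level on each side, the antisense gene and those that share a seed. Alternatives were other library sizes, count minimums, strands, coefficients, lengths, distances and each library alone.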

Additional observations from a re-analysis of the deposited data

How the results depend on the processing

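Of 103 alternative values, 82 kept their direction and their side of the 2-fold call, or moved by less than the spread between the libraries. With all reads as the denominator the levels were 12312 (Mir126a), 70.7 (Mir221) and 48.4 (Mir222) per 1000000 reads, by construction lower, and with both-strand counts Mir222 stood at 107 CPM. Ranks without genes that share sequence, a shorter list, were 10, 151 and 170 for Mir126a, Mir221 and Mir222, and per base of gene length 10 for Mir126a and 199 for Mir222. The rank of Mir126a ranged from 10 to 11 with either library left out. Per base, the log2 ratios were 7.84 for Mir126a over Mir221, 8.11 for Mir126a over Mir222 and 0.27 for Mir221 over Mir222. The log2 ratio between the libraries turned to -0.073 for Mir126a with all reads as the library size (chosen after seeing the data). For Mir222 it turned to 0.0013 with at least 100 counts. Both settings changed these ratios only through the library scaling, which shifts the ratios of all genes alike. With all reads as the library size Mir222 passed the exact binomial test (adjusted p = 0.0272). With an edgeR coefficient of 0.1, Mir126a (adjusted p = 0.952) and Mir221 (0.706) no longer passed, and over all settings their highest adjusted p was 1. The count of genes called at 2-fold was 6 with at least 100 counts, where fewer genes were tested, and 2 and 0 with edgeR coefficients of 0.2 and 0.4. With no limit on size it was 30, 2 and 0 at coefficients of 0.1, 0.2 and 0.4. With 2 libraries, the SD rests on 1 difference, and hairpin strands could not be separated. No paired analysis was possible because there was 1 group.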

Other observations

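The predicted folds of the 3 hairpins were ordinary among the 395 detected genes, whose median minimum free energy was -43.4 kcal/mol per 100 bases. Mir126a reached -42.7, Mir221 -45.1 and Mir222 -51.5 kcal/mol per 100 bases, and 82.3% of detected genes had a weaker fold than Mir222. The share of G and C was 45.2% in Mir126a, 47.4% in Mir221 and 54.4% in Mir222, against a median of 51.2%. Mir126a, the most abundant of the 3, had the weakest fold and the lowest share of G and C, a description over 3 genes that share the same libraries.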
